A study of Mus musculus with 2 samples.

Results

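The genes that give a central neuron its glutamate or GABA identity number 6 here, and all 6 were located among 21802 protein-coding genes in 2 DNase-seq libraries of mouse hippocampus. DNase-seq maps chromatin that the nuclease DNase I can cut. The 3 glutamate genes are Slc17a7, Slc17a6 and Slc17a8, and the 3 GABA genes are Gad1, Gad2 and Slc32a1. They were set by their known role, with earlier results of these data in view, and no signal threshold entered the choice. Per the labels, both libraries came from B6CASTF1/J females aged 14 days, the first-generation offspring of a C57BL/6J by CAST/EiJ cross, with 3 females named for each library. The libraries form 1 group, replicates 1 and 2, with different biosample identifiers and a common donor identifier. The labels do not say whether they hold separate animals, and differences between the libraries may in part be technical. No other genotype, treatment or age was sampled, so every value below is a description and no test between conditions was possible.

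A neuron signals with glutamate when it carries a vesicular glutamate transporter, which loads glutamate into synaptic vesicles. Slc17a7 encodes VGLUT1, the main such transporter of hippocampal and cortical excitatory neurons; Slc17a6 encodes VGLUT2, which prevails in thalamus and brainstem; Slc17a8 encodes VGLUT3, found in scattered neurons including some interneurons. GABA is made from glutamate by the decarboxylases GAD67 (Gad1) and GAD65 (Gad2), and Slc32a1 encodes VGAT, which loads GABA and glycine into vesicles. In hippocampus, glutamate neurons are the majority and GABA interneurons the minority. In bulk tissue, fewer cells of a type and less open chromatin per cell cannot be told apart.

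All 6 genes had a peak at a coding start in replicate 1, each weaker than the lower quartile of all promoters with a peak, while only Slc17a6 and Gad1 had a peak in replicate 2. Each locus held at least 1 distal site found in both libraries. Of all distal peaks of replicate 1, 68.9% were found in replicate 2, a share per peak. The share of all gene loci with such a site was not computed. A pair of sites at Slc17a7 and an intronic site of Gad1, upstream of its main start, ranked among the top 5% of all distal peaks in both libraries. The shared site of Gad2 stood at percentile 8.50 in replicate 1 and was not in the shorter peak list of that library. A locus here is the gene with 20 kb on either side. A promoter peak lies within 500 bp of the start of a protein-coding transcript, and a distal peak lies over 1 kb from every annotated transcript start. Peak signal is the authors' own value in units whose scaling is not stated, so it is ranked within a library. Ratios between libraries are given only to set sites against each other, since a ratio of 1 has no fixed meaning without a common scale.

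The 4 distal sites below, found in both libraries, are printed because they are the strongest such sites at their loci or, for Slc17a6, the stronger of its intronic sites. Each is the stretch common to the peaks of both libraries, on the + strand of mm10, and capitals mark bases inside footprints (short protected stretches within open chromatin) of both libraries. The Slc17a7 site is intergenic (chr7:45162241-45162340). The Slc17a6 site is in an intron of the gene (chr7:51662481-51662700). The Gad1 site lies in introns of Gad1 and of the antisense gene Gad1os (chr2:70558241-70558400). It is centred at -3722 bp from the main start of Gad1, and is intronic only for transcripts from the start at 70553072. The Slc32a1 site spans the end of an intron and 24 bases of exon (chr2:158613621-158613840).
Slc17a7 upstream site: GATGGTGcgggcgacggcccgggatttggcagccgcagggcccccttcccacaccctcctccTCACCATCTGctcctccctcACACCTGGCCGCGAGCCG
Slc17a6 intronic site: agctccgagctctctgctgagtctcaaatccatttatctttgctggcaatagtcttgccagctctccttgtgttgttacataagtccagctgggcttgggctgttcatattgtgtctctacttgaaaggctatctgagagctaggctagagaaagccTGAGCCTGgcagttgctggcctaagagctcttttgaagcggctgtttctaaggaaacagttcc
Gad1 intronic site: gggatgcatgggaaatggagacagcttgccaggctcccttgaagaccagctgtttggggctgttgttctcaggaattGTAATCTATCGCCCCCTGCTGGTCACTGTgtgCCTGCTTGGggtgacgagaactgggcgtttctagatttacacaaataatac
Slc32a1 intron and exon site: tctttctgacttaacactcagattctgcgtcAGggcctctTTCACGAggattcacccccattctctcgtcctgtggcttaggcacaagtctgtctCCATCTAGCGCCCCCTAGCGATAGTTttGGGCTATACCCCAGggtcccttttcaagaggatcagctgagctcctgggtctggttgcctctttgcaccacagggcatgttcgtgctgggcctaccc
The Slc17a7 stretch was 72% G and C, with 35 of its 100 bases in footprints of both libraries. One of those footprints held the letters CAGATG on the opposite strand, the E-box bound by NeuroD-type factors. The Gad1 stretch had 38 of 160 bases in such footprints, and all 12 bases of a match to CCANNAGNNGGC, the core letters of the CTCF motif, lay inside one on the opposite strand. The Slc32a1 stretch had 49 of 220 footprint bases in both libraries and held none of the 10 motifs searched. The wider replicate 1 peak at the Slc17a7 site also held the CTCF letters, a match that the printed stretch does not hold.

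The promoters below are printed as the 150 bases before the main start, on the gene's strand, which is + for all 3. They set a start open in both libraries (Slc17a6, chr7:51621856-51622005) beside a pair open in replicate 1 alone (Slc17a7, chr7:45163799-45163948, and Gad2, chr2:22622055-22622204). Capitals mark bases in a footprint of either library.
Slc17a6 promoter: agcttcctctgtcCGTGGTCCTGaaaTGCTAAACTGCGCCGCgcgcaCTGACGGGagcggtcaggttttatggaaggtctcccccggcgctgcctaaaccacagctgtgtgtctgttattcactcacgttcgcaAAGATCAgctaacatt
Slc17a7 promoter: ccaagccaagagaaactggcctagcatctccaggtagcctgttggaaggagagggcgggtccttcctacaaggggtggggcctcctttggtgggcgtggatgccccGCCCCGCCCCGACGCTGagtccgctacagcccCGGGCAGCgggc
Gad2 promoter: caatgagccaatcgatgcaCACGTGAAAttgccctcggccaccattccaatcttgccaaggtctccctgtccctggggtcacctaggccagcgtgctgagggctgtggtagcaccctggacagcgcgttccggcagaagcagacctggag
Footprints covered 31 bases of the Slc17a6 stretch in replicate 1 and 23 in replicate 2. In the Slc17a7 stretch they covered 25 and 0 bases, and in the Gad2 stretch 9 and 0 bases. The footprints of the Slc17a7 promoter fall in stretches rich in G and C, and that of Gad2 is a single short stretch.

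Both libraries covered the genome at unequal breadth. Replicate 1 held 115699 peaks and 316302 footprints, with 1.42% of the genome at a false discovery rate (FDR) of the cut rate under 0.05. Replicate 2 held 167829 peaks and 366915 footprints, with 1.91% of the genome under that FDR. At peaks found in both libraries, the median ratio of signal in replicate 1 over replicate 2 was 2.32 at promoters and 1.38 at distal sites, so promoters were weaker relative to distal sites in replicate 2. The part this has in the values below was not tested.

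A promoter peak was present at 6 of 6 identity genes in replicate 1, 2 of 6 in replicate 2 and 2 of 6 in both. Among all protein-coding genes the shares were 66.0% in replicate 1, 63.5% in replicate 2 and 61.9% in both. A promoter peak in replicate 1 alone was seen at 4 of the 6 genes, against 4.08% of all genes (889). With 6 genes, these counts describe the genes named and no wider class. They come from 2 libraries, and leaving out replicate 1 or replicate 2 gives 2 or 6 genes with a peak.

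Slc17a7 (chromosome 7, 45163949 to 45176142, + strand) had a promoter peak with a signal of 1.94 in replicate 1 and none in replicate 2. That signal stood at percentile 21.2 of promoters with a peak, just under their lower quartile of 2.31. The lowest FDR at its main start was 2.39e-07 in replicate 1, the lowest of the 6 genes, and no base there was listed under 0.05 in replicate 2. In replicate 1 the 440-bp peak straddled the start and held 8 footprints. The nearest peak of replicate 2 was 1149 bp from the start. A pair of noncoding starts of the same gene, inside the gene body, had a peak in both libraries, with 1.11 in replicate 1 and 0.998 in replicate 2.

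Slc17a6 (chromosome 7, 51622006 to 51671119, + strand) was the identity gene whose start looked most alike in both libraries. Its highest promoter signal was 1.75 in replicate 1 and 0.842 in replicate 2. Both values stood at percentile 19.1 within their own library. Another peak, 364 bp inside the gene in replicate 1, had signals of 1.00 and 0.819, so the open stretch flanked the start on both sides. The main start window held 7 footprints in replicate 1 and 8 in replicate 2, and the lowest FDR was 3.60e-07 in replicate 1 and 8.32e-06 in replicate 2.

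Slc17a8 (chromosome 10, 89574020 to 89621253, − strand) had the weakest promoter of the 6. Its single promoter peak had a signal of 0.327 in replicate 1, at percentile 0.917, and held no footprint. Replicate 2 had no peak within 8753 bp of that start. Another coding start, inside the gene, had no peak and no base under an FDR of 0.05 in either library.

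Gad1 (chromosome 2, 70553072 to 70602014, + strand) has 5 coding starts, and the libraries differed among them. Its highest promoter signal was 1.60 in replicate 1 and 0.883 in replicate 2, at percentiles 17.5 and 20.1. The coding starts at 70562042 and 70562196 had a peak in both libraries. Those at 70562899 and 70563442 had a peak in replicate 1 alone, and the gene's most upstream start, 70553072, had none within 5169 bp in either library. The start of Gad1os, on the opposite strand, lies 1315 bp from the main start of Gad1, so open chromatin between them cannot be given to one gene.

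Gad2 (chromosome 2, 22622205 to 22693874, + strand) had the widest promoter peak of the 6 genes and the widest gap between libraries. In replicate 1 a peak of 840 bp covered its start, with a signal of 0.783 at percentile 7.51. In replicate 2 the nearest peak was 48230 bp away. The start is therefore open over a broad stretch at low signal in 1 library and not detectably open in the other.

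Slc32a1 (chromosome 2, 158610767 to 158615748, + strand) had a promoter signal of 1.05 in replicate 1, at percentile 11.1, and no promoter peak in replicate 2. Its main start window held 6 footprints in replicate 1 and 0 in replicate 2. The nearest peak of replicate 2 was 1954 bp away, inside the gene. The noncoding gene Gm14204 starts 44 bp from it on the opposite strand, so open chromatin at this start cannot be given to one gene.

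**Figure D1:**
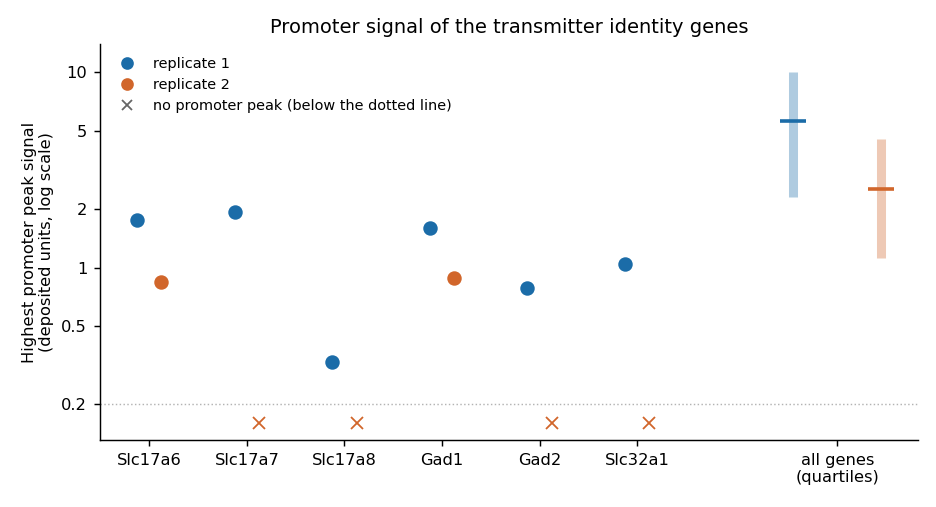
Highest promoter peak signal of each transmitter identity gene in replicates 1 (blue) and 2 (orange), in deposited units on a log axis; crosses below the dotted line mark no promoter peak, and the bars at right give the quartiles and median of all genes with a promoter peak in each library. The 6 values of replicate 1 lie between 0.327 and 1.94, under the lower quartile of 2.31, and the 2 values of replicate 2 lie under 1.11.

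A weak promoter in replicate 1 often lacked a peak in replicate 2, but how often depended steeply on its signal. Among genes in the lowest 5% of promoter signal in replicate 1, which include Slc17a8, 58.1% had no promoter peak in replicate 2. From percentile 5 to 10, the range of Gad2, the share was 37.0%, and from 10 to 15, that of Slc32a1, it was 18.2%. From 15 to 20, where Slc17a6 and Gad1 kept their peaks, it was 5.82%. From 20 to 25, the range of Slc17a7, only 14 of 724 genes (1.93%) lost the peak. Loss in replicate 2 was therefore common among promoters as weak as that of Slc17a8 and uncommon among promoters as strong as that of Slc17a7. These ranges were chosen after the values had been seen.

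The FDR runs give the same windows without a peak call. They come from the same alignment as the peaks of a library, so they are not independent of them. Any base under an FDR of 0.05 within 500 bp of a coding start was listed for 6 of 6 genes in replicate 1 and 2 of 6 in replicate 2, against 66.7% and 64.6% of all genes. The share of bases listed was 75.3% in replicate 1 and 74.2% in replicate 2 at Slc17a6, and 49.0% and 13.6% at Gad1. It was 51.4% at Slc17a7, 8.24% at Slc17a8, 79.5% at Gad2 and 66.4% at Slc32a1 in replicate 1, and 0% at all 4 in replicate 2. Replicate 2 was thus at 0 wherever it had no promoter peak. The median over the 6 genes was 58.9% in replicate 1 and 0% in replicate 2, against 37.2% and 30.3% over all genes. The mean over both libraries was 34.8%, with an SD of 28.5 (n = 2).

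Gad2 had the broadest open window in replicate 1, at percentile 80.6 of all genes, with a peak signal at percentile 7.51 of promoters with a peak. A window at least 50% open in replicate 1 with no listed base in replicate 2, as at Slc17a7, Gad2 and Slc32a1, occurred at 149 genes, or 0.683% of all genes. That limit was also set after the values had been seen.

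**Figure D2:**
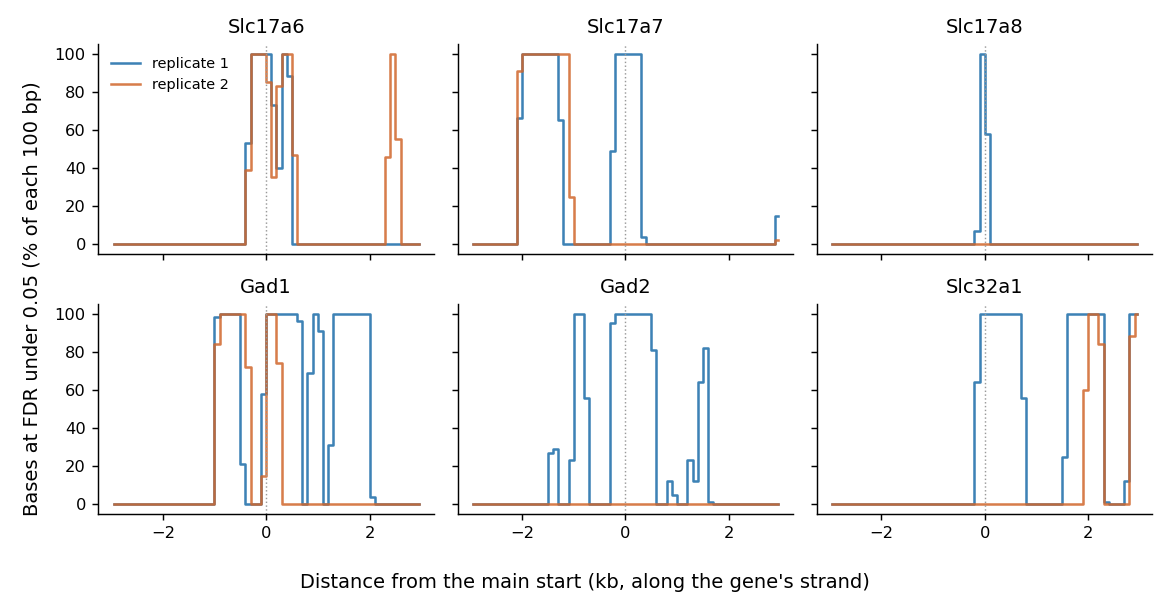
Percentage of bases at an FDR under 0.05 in 100-bp steps from 3 kb upstream to 3 kb downstream of the main start (dotted line) of each gene, in replicate 1 (blue) and replicate 2 (orange). Both libraries reach 100% at Slc17a6, both are open upstream of the Slc17a7 start while replicate 1 alone is open over it, and replicate 2 stays at 0% across the whole Gad2 span.

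The main starts differed in base composition. The ratio of observed to expected CpG was 0.522 at Slc17a7, 0.608 at Slc17a6, 0.270 at Slc17a8, 0.678 at Gad1, 0.635 at Gad2 and 0.760 at Slc32a1, against a median of 0.523 over all coding starts. Slc32a1, at percentile 74.8 the richest in CpG, lacked a peak in replicate 2, and Slc17a6, at 56.7, had one. Slc17a8 had both the lowest ratio and the weakest peak. The G and C content was 52.1% at Slc17a6 and 58.2% at Gad1, the starts with a peak in both libraries. It was 60.2% at Slc17a7, 60.9% at Gad2, 65.6% at Slc32a1 and 53.0% at Slc17a8, which had a peak in replicate 1 alone, against a median of 54.8% over all coding starts. Of these, 3 of 4 thus lay above both starts open in each library, and the part of base composition was not tested.

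Away from starts, the 6 loci held 23 distal peaks in replicate 1 and 32 in replicate 2. With equal numbers of peaks, the strongest of replicate 2 being kept, the counts were 23 and 25. With all peaks kept, 18 of 23 (78.3%) and 19 of 32 (59.4%) overlapped a distal peak of the other library, against 68.9% and 42.7% of all distal peaks. The glutamate loci had 9 distal peaks in replicate 1 and 18 in replicate 2, and the GABA loci 14 in each. Density was 0.485 and 0.675 distal peaks per 10 kb of locus, against 0.291 and 0.472 over the whole genome, gene-poor stretches included. No density over other gene loci was computed, so whether the difference is particular to these genes was not tested. At the 18 shared sites the ratio of replicate 1 over replicate 2 had a median of 1.67 and ranged between 0.604 and 3.29.

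Slc17a7 had 4 distal peaks in replicate 1 and 5 in replicate 2 (4.50 ± 0.707, SD, n = 2), against a median of 2 in genes of like length in both libraries. Nearly all lay within 2 kb of an annotated start: over 2 kb from any start the mean was 0.5, and in the gene body alone 1.5. Its upstream site, centred at -1658 bp in the stretch printed above, was the strongest distal peak of the 6 loci in replicate 1, with a signal of 12.1 at percentile 99.8 of distal peaks. In replicate 2 it had 3.70, at percentile 99.6. This site was thus several times as strong as the promoter peak of the same gene in replicate 1 and present in replicate 2, where the promoter was not. A site beyond the 3′ end, at chromosome 7 from 45182281, had 4.89 in replicate 1 and 2.54 in replicate 2, 1099 bp from the nearest annotated start. The locus is gene-dense, and the shared start of Aldh16a1 and Pih1d1 within it, with 13.7 and 4.99, exceeded every site of Slc17a7.

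Slc17a6 had 3 distal peaks in replicate 1 and 8 in replicate 2 (5.50 ± 3.54, SD, n = 2), against length-matched medians of 3 and 4. Its shared sites were both intronic. The printed one had 0.821 in replicate 1 and 0.594 in replicate 2, and the other 0.767 and 0.398, all between percentiles 44.0 and 65.8 of distal peaks. Replicate 2 split the printed site, with a weaker peak of 0.312 beside it. The strongest distal peak, 3786 bp from the start and intergenic, was found in replicate 2 alone, with 1.15 at percentile 87.8. Of its distal peaks, 66.7% in replicate 1 and 37.5% in replicate 2 were shared, near the 68.9% and 42.7% of all distal peaks.

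Slc17a8 had 2 and 5 distal peaks (3.50 ± 2.12, SD, n = 2), against medians of 3 and 4. Both peaks of replicate 1 were shared, at 0.722 and 0.513 for the site 13928 bp upstream of the gene and at 0.350 and 0.485 for an exonic site. The strongest, 8928 bp from the start with 1.36 at percentile 91.2, was found in replicate 2 alone. Little open chromatin was thus detected at the start of this gene. The share of its distal peaks found in the other library was 100% in replicate 1 and 40% in replicate 2, against 68.9% and 42.7% of all distal peaks.

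Gad1 had the highest mean number of distal peaks of the 6, with 8 in replicate 1 and 7 in replicate 2 (7.50 ± 0.707, SD, n = 2), against medians of 3 and 4. All but 1 were shared: 7 of 8 in replicate 1 and 7 of 7 in replicate 2. The intronic site printed above, centred at -3722 bp from the main start, had 3.98 in replicate 1 and 3.76 in replicate 2. These signals stood at percentiles 95.9 and 99.6 of distal peaks. The ratio of replicate 1 over replicate 2 was 1.06 there, against a median of 1.38 at shared distal sites in general. Further shared sites had 2.51 and 1.23 at 70620341, beyond the 3′ end, and 2.39 and 1.07 at 70567441, in an intron. The 3 shared sites further into the gene had 1.07 and 1.19, 1.03 and 0.813, and 0.646 and 0.848. The last, in an intron of Erich2 and Gad1os upstream of the gene, had 1.06 in replicate 1 and 0.335 in replicate 2. A peak 622 bp upstream of the main start, too near for a distal call, had 2.54 in replicate 1 and 1.70 in replicate 2, above both promoter signals of the gene.

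Gad2 had the fewest distal peaks of the 6 loci on average, with 3 distal peaks in replicate 1 and 2 in replicate 2 (2.50 ± 0.707, SD, n = 2), against medians of 4 and 6. With the shorter peak lists its mean was 0.5. Its count in replicate 2 stood at percentile 8.35 of genes of like length. The single shared site, intergenic and 8470 bp from the nearest start, had 0.251 in replicate 1 and 0.415 in replicate 2, the first of these at percentile 8.50 of distal peaks. In replicate 2 only 0.525% of the locus was under an FDR of 0.05, and 1.49% in replicate 1.

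Slc32a1 had 3 distal peaks in replicate 1 and 5 in replicate 2 (4.00 ± 1.41, SD, n = 2), against a median of 1 in both for genes of its short length. All 3 of replicate 1 were shared. The printed site had 1.66 and 1.16, and a pair of upstream sites had 1.31 and 0.519, and 1.04 and 0.542. The extra peaks of replicate 2 lay inside the neighbouring gene Actr5, whose own start, with 6.38 and 3.01, was the strongest peak of the locus. A near-start site 981 bp from the nearest start had 1.65 and 0.617. The gene body was therefore open in both libraries although its promoter was called in 1.

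**Figure D3:**
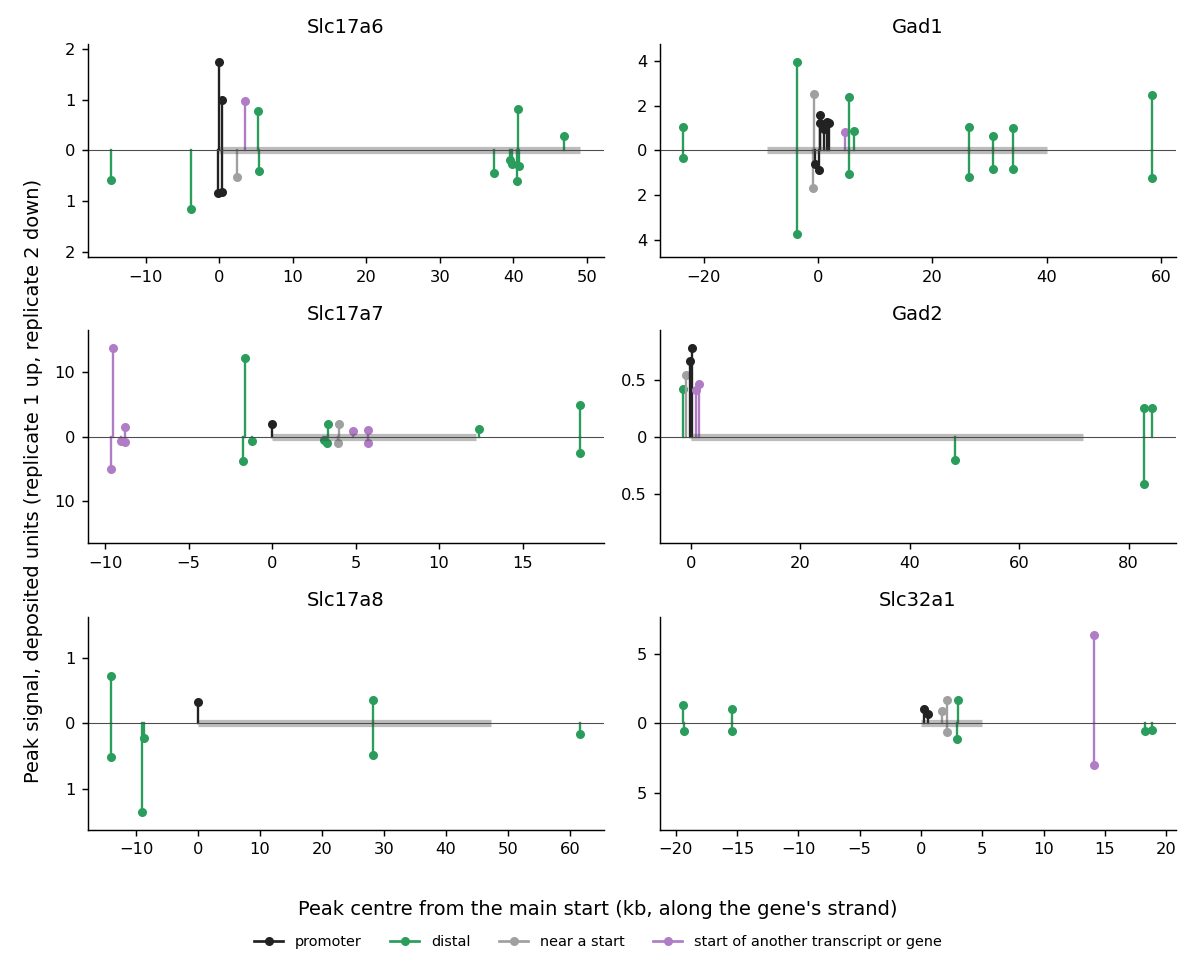
Signal of every peak in each locus against the distance of its centre from the main start in kb along the gene's strand, with replicate 1 drawn upward and replicate 2 downward in deposited units, a scale per panel, and the gene body as a grey bar. Sites seen up and down at the same place are found in both libraries. Examples are the upstream site of Slc17a7 (12.1 and 3.70) and the intronic site of Gad1 upstream of its main start (3.98 and 3.76). Promoter peaks (black) point down only at Slc17a6 and Gad1.

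**Figure D4:**
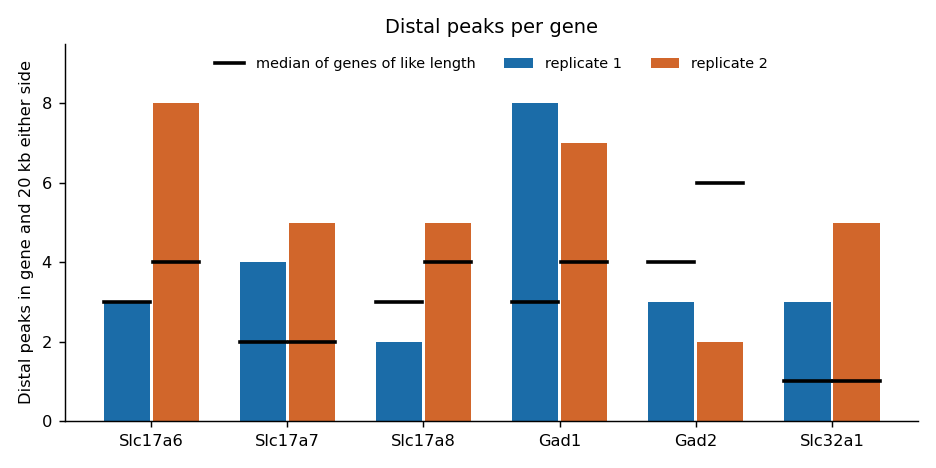
Number of distal peaks per gene in replicate 1 (blue) and replicate 2 (orange), with a black line at the median of genes in the same of 10 groups of gene length. Gad1, Slc17a7 and Slc32a1 stand above the line in both libraries (8 and 7, 4 and 5, 3 and 5 peaks), and Gad2 stands below it in both (3 and 2).

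Motif letters were counted in 200 bp around the centre of each distal peak, on both strands. The CTCF letters CCANNAGNNGGC were in 5 of 23 distal windows of the 6 loci in replicate 1 and 6 of 32 in replicate 2, against 9.55% and 7.93% of all distal windows. Of these, 4 in each library were the same 4 sites of Gad1, which are the printed intronic site, a pair of intronic sites further in and the site beyond the 3′ end. The other window of replicate 1 was the upstream site of Slc17a7, whose printed stretch does not hold the match. The others of replicate 2 were an intergenic peak upstream of Slc17a6 and a peak inside Actr5, both found in that library alone. CTCF is an insulator protein that anchors chromatin loops. The E-box CAGATG was in 7 of 23 and 9 of 32 windows, against 25.6% and 30.2% of all. The match in the printed Slc17a7 stretch counted in replicate 1 alone, since it lay outside the 200-bp window of replicate 2. The Sp and KLF letters GGGCGG were in 5 of 23 and 4 of 32, against 9.01% and 4.94%. The homeodomain letters TAATTA, read by Dlx and Lhx factors among others, were in 1 of 23 and 2 of 32, against 3.23% and 6.91%, and a site upstream of Slc32a1 held them in both libraries. The AP-1 letters TGANTCA were in 1 of 23 and 1 of 32 windows, against 6.92% and 8.83%. The RFX letters GTTNCNNNGNNAAC were in 1 of 23 and 0 of 32, against 1.00% and 1.52%. That match lies in the printed Slc17a6 stretch, which the peaks of both libraries cover, but outside the 200-bp window of replicate 2. The REST letters CAGCACCNNGGACA, the NFI letters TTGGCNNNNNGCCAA, the CRE letters TGACGTCA and the MEF2 motif were in none of the windows of the 6 loci, and each was in under 1% of all windows. Letter matches describe sequence and not binding. All sequence here is that of the reference assembly, and CAST/EiJ alleles of these animals were not looked up.

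Promoter peaks of genes that feed and clear these transmitters ranged from strong to absent. Of 13 genes of glutamate supply and clearance, 13 had a promoter peak in both libraries, with a median window share of 64.3% in replicate 1 and 51.6% in replicate 2. They include Gls2, a glutaminase that makes glutamate from glutamine (11.3 and 5.51), and Got1, a transaminase that forms glutamate (10.4 and 5.50). The transporter genes Slc1a3 (1.46 and 0.750) and Slc1a6 (1.52 and 0.352) were weaker than Slc17a6 in both libraries. Of 6 genes of GABA clearance and breakdown, 4 had a peak in both libraries, with a median window share of 27.5% and 19.6%. Among them were Abat, which breaks down GABA (11.6 and 4.35), and Aldh5a1, which acts on the next step (5.11 and 1.59). The transporter gene Slc6a11 had 1.83 and 0.485. The transporters Slc6a12 and Slc6a13 had none in either library.

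Genes that mark other transmitters varied more. Of 14, 10 had a promoter peak in replicate 1, 7 in replicate 2, 6 in both and 3 in neither. The strongest were Slc18a1, a vesicular monoamine transporter (19.4 and 6.21), Dbh, which makes noradrenaline (3.79 and 1.87), and Tph2, which makes neuronal serotonin (2.49 and 1.01). Neighbouring starts were looked up for the 6 identity genes only, so a signal here may belong to the start of another gene. Chat, Th and Hdc, which make acetylcholine, catecholamines and histamine, had none. In the rest of the Slc17 family, 2 of 6 had a peak in replicate 1 and 1 in replicate 2. That 1 was Slc17a5, a lysosomal sialic acid transporter, with 6.52 and 2.71. Slc17a9, a vesicular nucleotide transporter, had 0.691 in replicate 1, and Slc17a1, Slc17a2, Slc17a3 and Slc17a4 had none in either library.

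Over 6 percentiles (promoter signal, window share and distal count in each library) and 39 genes of these lists, the nearest gene to Slc17a7, Slc17a8 and Slc32a1 was the noradrenaline transporter gene Slc6a2, at distances of 22.0, 16.2 and 25.8 percentile points. Like them, it had a promoter peak in replicate 1 alone, with 0.501, a trait that the distance itself counts. Gad1 was nearest to Tph2 (21.6), Slc17a6 to Dbh (31.8) and Gad2 to the glutamate transporter gene Slc1a6 (36.6). The distances describe likeness in these 2 libraries only.

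**Figure D5:**
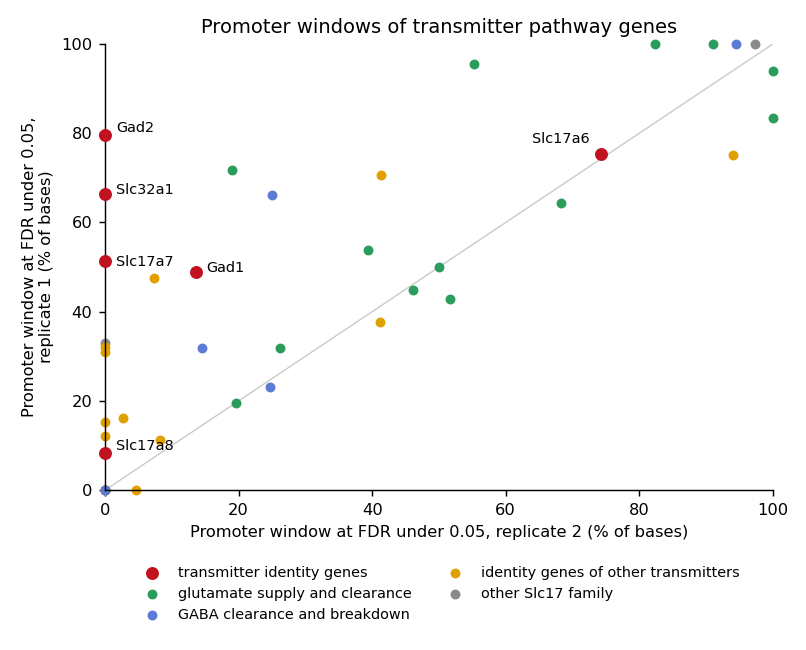
Percentage of bases within 500 bp of coding starts at an FDR under 0.05, replicate 1 against replicate 2, for the transmitter identity genes (red) and 4 lists of related genes; the grey line marks equal values. Slc17a6 lies on the line at 75.3% and 74.2%, and Gad2, Slc32a1, Slc17a7 and Slc17a8 lie on the left edge at 0% in replicate 2, whereas 13 of 13 genes of glutamate supply and clearance lie off that edge.

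Marker genes of cell types were set beside the identity genes. Their counts stand against promoter peaks at 66.0% of all genes in replicate 1 and 63.5% in replicate 2. Their summed signals were lower in replicate 2 for every list, and the median ratio at shared promoter peaks was 2.32. That ratio is an unlike measure, since the sums also hold genes with a peak in 1 library and weigh strong genes most. Of 10 interneuron markers, 9 had a promoter peak in replicate 1 and 6 in replicate 2, with summed promoter signals of 11.0 and 4.02. Dlx1, Sst and Vip had a peak in replicate 1 alone, as Gad2 and Slc32a1 did. Dlx2, Dlx5, Dlx6, Adarb2, Pvalb and Npy had a peak in both libraries, as Gad1 did, and Lhx6 had none in either. Of 6 markers of hippocampal excitatory neurons, 6 had a peak in both libraries, with sums of 27.9 and 14.1. In replicate 2, Slc17a7 had no promoter peak and these 6 markers each had one. Of 4 thalamus markers, 4 had a peak in replicate 1 and 3 in replicate 2, with sums of 8.02 and 3.37, and Gbx2 was absent from replicate 2. Astrocyte markers had peaks at 4 of 4 genes in both libraries (sums 4.59 and 2.38). Oligodendrocyte lineage markers had peaks at 2 of 4 in both (5.70 and 1.78). Microglia markers had peaks at 3 of 4 in each library and 2 of 4 in both (2.77 and 1.62). The part of cell composition in the values of the identity genes was not tested.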

How the data were processed

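Per the deposited file listings, the authors made all files of a library from its own filtered mm10 alignment, so peaks were called per library. The sources used here do not name the aligner, the callers or their versions. The authors deposited 2 peak lists for each library, in which every peak carries a signal, and the longer list was used. How the signal was scaled is not stated, so depth in reads is unknown. The deposited FDR (q-value) files of the cut rate list only runs under 0.05. The deposited footprints carry a score of 0.01 in every row and were not ranked.

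From these, peaks, FDR bases and footprints were placed on GENCODE M21 gene models, with coordinates 1-based on mm10 and sequence from GRCm38.p6, the same assembly. The loci span 20 kb either side of each gene, and libraries shared a peak at an overlap of 1 bp or more. Percentiles were taken over protein-coding genes with a unique symbol, distal counts also within 10 groups of gene length. Interval functions were tested on simulated data. Python 3.11.15, numpy 2.4.6 and pandas 2.3.3 were used.

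The genes and lists were chosen with earlier results of these data known. Genes named were the 6 identity genes and, from each related list, the 3 strongest by the smaller promoter percentile of both libraries and those with no promoter peak in either; some of these are not reported here. Slc17a9, Slc1a3, Slc1a6, Slc6a11, Gbx2 and the interneuron markers were named after their values had been seen. Alternatives covered the peak list, windows, starts, flanks, FDR level, overlap, equal numbers of peaks and each library left out.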

Additional observations from a re-analysis of the deposited data

How the results depend on the processing

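No paired analysis was possible because there is a single group, and no result comes from a test. The count of identity genes whose promoter had a peak in both libraries, 2 as reported, was 1 with the shorter peak lists and 1 with the gene's annotated 5′ end only, where Gad1 had no peak in either library. It was 3 with all annotated starts, which add the noncoding starts of Slc17a7, and ranged from 2 to 6 with a library left out. The mean number of distal peaks over the 6 loci, 27.5, was 18 with the shorter lists, 14 in gene bodies only, 41.5 with 50 kb either side and 18 over 2 kb from any start, but 24 with equal numbers of peaks, with a range of 23 to 32 when a library was left out. The 18 distal sites shared were 11 with the shorter lists, 10 in gene bodies and 11 over 2 kb from any start. The promoter window share of 34.8% was 26.5% at an FDR under 0.01 and 44.1% within 250 bp, and ranged from 14.6% to 55.0% with a library left out. Of 84 values for single genes under the alternatives, 67 counted as not moved and 17 as moved. A distal count was taken as moved where it changed by more than 1.5 times. For promoter signals the limit was the SD between libraries. Where a gene had a promoter peak in replicate 1 alone, and so no SD, any change of its signal counted as moved. The shorter lists gave Slc17a8 no promoter value, and without replicate 1 neither Slc17a7, Slc17a8, Gad2 nor Slc32a1 had one. The causes were not tested. With 2 libraries and no read depth, a promoter with no peak in replicate 2 was not detectable there, which does not show it closed.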
